A study of Mus musculus with 3 samples.

Results

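Adhesion G protein-coupled receptors (adhesion GPCRs) were followed in endothelial cells sorted from mouse lung. The 8 receptors Adgrf5, Adgrl2, Adgrl3, Adgrl4, Adgre5, Adgrg1, Adgrg6 and Adgra2 were chosen by gene symbol, out of 32285 genes counted, and all 8 were present in the gene list. Each library was a droplet-based single-cell RNA-Seq library (10x Genomics 3′), in which each captured RNA molecule is counted once by its unique molecular identifier (UMI). Wild-type C57BL/6 mice received PBS or 200000 B16-F10 cells in 100 µl PBS through the tail vein, and B16-F10 is a melanoma line of the same strain. The groups were PBS at 6 h (control), melanoma at 6 h and melanoma at 30 h, with 1 library each. The sort kept lung cells that carried the endothelial protein Pecam1 and lacked the leukocyte protein Ptprc, and dye-labelled melanoma cells were added to the 6 h melanoma library. Each library is a pool of mice, 2 per treatment by the labels although the study's methods give another number for this experiment, and no PBS library was taken at 30 h. Differences between the groups therefore have no replicate check, and intervals around them cover counting error only.

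Endothelial barcodes were those with 1000 to 5000 detected genes, under 20% mitochondrial UMIs and at least 2 UMIs of Pecam1 and Cdh5 together. They numbered 11231 in the control, 10583 at 6 h and 9278 at 30 h, which was 96.8% to 97.6% of the barcodes that passed the first criteria. Median UMIs per endothelial barcode were 7782, 8033 and 8675.5. Libraries shared 22 to 38 endothelial barcode sequences in each pair. Markers of other cells were low but not absent in the summed endothelial UMIs. Levels are given as UMIs per 1000000 UMIs of the same barcodes (CPM). Ptprc, which the sort selected against, stood at 3.16 to 6.53 CPM and the epithelial marker Epcam at 0.638 to 0.813. The 4 haemoglobin genes summed to 3243, 2115 and 827 CPM and the 6 epithelial markers to 812, 592 and 372, both lowest at 30 h. The 10 heat shock and immediate early genes summed to 6881, 9606 and 4917, highest at 6 h. The 6 gene models that can collect ribosomal RNA reads summed to 5014, 6260 and 21298, highest at 30 h. The 6 melanoma markers summed to 1.24, 14 and 1.03 CPM, highest in the 6 h library.

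Adhesion GPCRs carry a long extracellular region with adhesion domains, cut by autoproteolysis near the membrane, and a seven-helix region that couples to G proteins. The extracellular fragment binds matrix or proteins on neighbouring cells, and its removal or displacement exposes a tethered peptide that activates the receptor. In vessels, Adgrl4 (Eltd1) and Adgrf5 (Gpr116) are abundant endothelial receptors, and Adgra2 (Gpr124) acts with Reck as a co-receptor for Wnt7a and Wnt7b in brain endothelium. Adgrl2 and Adgrl3 are latrophilins, which bind teneurins and FLRT proteins. Adgre5 (Cd97) binds Cd55, Adgrg1 (Gpr56) binds collagen III and transglutaminase, and Adgrg6 (Gpr126) binds collagen IV and is required for myelination by Schwann cells.

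In the mouse annotation (GRCm38, GENCODE M21), Adgrl3 spans chr5:81020138-81825133 on the plus strand, Adgrl4 chr3:151437887-151545086 on the plus strand, Adgrg1 chr8:94974751-95014217 on the plus strand and Adgrg6 chr10:14402583-14545659 on the minus strand. Introns make up 79.2% (Adgre5) to 97.8% (Adgrl3) of the 8 genes. Whether intronic reads were counted is not given in the sources used here. CPM levels were therefore compared between samples and classes for 1 gene at a time, not between genes. No other gene of the count matrix overlaps any of the 8 on the same strand.

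Promoter windows were read from RefSeq (GRCm38.p6), from 250 bases before to 50 bases after each start, and entries were found for 6 of the 8 receptors. Those of Adgrl3, Adgrl4, Adgrg1 and Adgrg6 are shown because the differences between vessel classes described next turn on these genes. The windows lie at chr5:81020321-81020620 on the plus strand for Adgrl3, chr3:151437632-151437931 on the plus strand for Adgrl4, chr8:94976859-94977158 on the plus strand for Adgrg1 and chr10:14544987-14545286 on the minus strand for Adgrg6. Where RefSeq listed several starts (3 for Adgrl3 and 2 for Adgrg1), the window nearest the 5′ end of the annotated gene was taken. Capitals mark CCGGAA or CAGGAA on either strand, letters that ETS factors, a family active in endothelium, can bind.
Adgrl3: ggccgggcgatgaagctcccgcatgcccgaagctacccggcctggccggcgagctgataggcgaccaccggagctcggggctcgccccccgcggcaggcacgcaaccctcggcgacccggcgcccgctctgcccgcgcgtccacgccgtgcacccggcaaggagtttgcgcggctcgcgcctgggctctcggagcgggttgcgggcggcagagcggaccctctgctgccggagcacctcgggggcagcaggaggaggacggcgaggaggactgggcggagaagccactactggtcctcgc
Adgrl4: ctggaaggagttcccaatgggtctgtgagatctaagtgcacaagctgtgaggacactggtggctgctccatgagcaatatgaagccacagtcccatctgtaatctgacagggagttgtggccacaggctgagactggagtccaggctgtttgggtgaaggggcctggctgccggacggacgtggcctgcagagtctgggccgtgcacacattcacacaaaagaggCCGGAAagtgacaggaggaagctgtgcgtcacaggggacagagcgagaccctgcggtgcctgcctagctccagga
Adgrg1: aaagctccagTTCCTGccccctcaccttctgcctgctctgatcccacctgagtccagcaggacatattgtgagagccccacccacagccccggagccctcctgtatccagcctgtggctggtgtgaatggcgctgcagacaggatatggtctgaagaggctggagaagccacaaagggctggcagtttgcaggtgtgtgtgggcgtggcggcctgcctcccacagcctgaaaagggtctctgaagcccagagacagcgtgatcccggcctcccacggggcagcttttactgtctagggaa
Adgrg6: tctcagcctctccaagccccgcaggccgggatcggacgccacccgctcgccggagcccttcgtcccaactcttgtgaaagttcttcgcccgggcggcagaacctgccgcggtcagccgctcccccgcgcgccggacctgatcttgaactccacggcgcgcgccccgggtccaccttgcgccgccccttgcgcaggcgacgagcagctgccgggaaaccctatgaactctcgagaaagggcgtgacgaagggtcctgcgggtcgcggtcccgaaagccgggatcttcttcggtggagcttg
A single match was present in each of the Adgrl4 and Adgrg1 windows and none in those of Adgrl3 and Adgrg6. Of all 32851 promoter windows of this length, 41.4% held at least 1 match on either strand. The other Adgrg1 window held none, nor did the others of Adgrl3. G and C made up 75.3% of the Adgrl3 window and 69% of the Adgrg6 window, against 58.7% for Adgrl4 and 60.7% for Adgrg1 and a median of 52.7% over all windows.

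To place the receptors along the vascular tree, barcodes were gated by marker UMIs. General capillary (gCap) barcodes were defined by Gpihbp1, Aplnr, Plvap and Kit, and aerocytes (aCap, the capillary cells that lie against the alveolar epithelium) by Ednrb, Car4, Apln, Fibin, Tbx2 and Chst1. Artery barcodes were defined by Gja5, Bmx, Dkk2 and Htra1, vein barcodes by Slc6a2, Car8, Prss23, Amigo2 and Moxd1, and lymphatic (LEC) barcodes by Prox1, Mmrn1, Reln, Ccl21a and Pdpn. In the control, 6 h and 30 h libraries the gates held 6483, 6533 and 4694 gCap, 1555, 1273 and 1558 aCap, 78, 70 and 202 artery, 588, 412 and 439 vein, and 73, 54 and 55 LEC barcodes. The remaining endothelial barcodes met no gate or several and were counted only among all endothelial cells. The listed artery markers Sema3g and Stmn2 were left out of the gate after their UMIs were seen, at 176 to 244 and 293 to 674 CPM over all endothelial barcodes. Differences between classes were tested on UMI sums per library and class with edgeR's quasi-likelihood test and the library as a block, so the 3 libraries served as replicates although they differed in treatment. A gene was called at an adjusted p under 0.05, by Benjamini-Hochberg over 12845 genes, and at least a 2-fold difference.

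**Figure D1:**
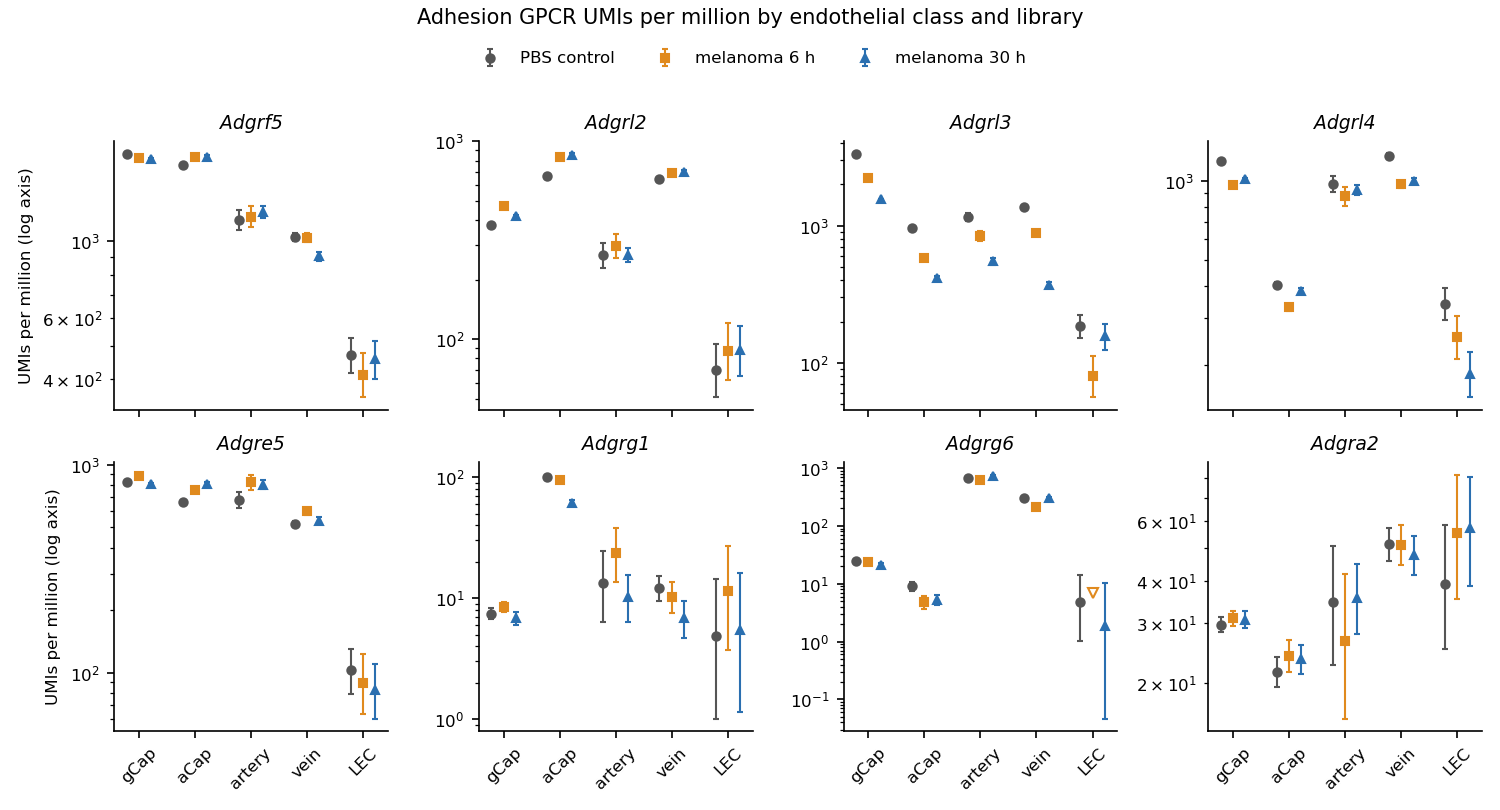
CPM (log axis) of each receptor in gCap-, aCap-, artery-, vein- and LEC-gated barcodes of the control, melanoma 6 h and melanoma 30 h libraries, with exact 95% Poisson intervals. An open triangle marks a sum of 0 UMIs, drawn at the level of 3 UMIs. Adgrl3 was highest in gCap, Adgrg1 in aCap, and Adgrg6 in artery followed by vein, in all 3 libraries.

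Adgrg6 marked the large vessels. Its level in artery barcodes was 664 CPM in the control, 627 at 6 h and 732 at 30 h. In vein barcodes it was 306, 214 and 304, and in gCap barcodes 24.4, 23.3 and 21.4. No library of the artery or vein class overlapped the gCap or aCap range, and every artery value lay above every vein value. Against gCap, Adgrg6 was higher in artery by 4.87 on the log2 scale (SE 0.15, edgeR adjusted p = 1.167e-13) and in vein by 3.63 (SE 0.14, edgeR adjusted p = 6.52e-13). The artery-to-gCap ratio was 27.3-fold, 26.9-fold and 34.2-fold in the control, 6 h and 30 h libraries.

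In aerocytes and lymphatic cells few Adgrg6 UMIs were found. Its aCap level was 9.02 CPM in the control, 4.78 at 6 h and 5.26 at 30 h, lower than in gCap by a log2 difference of -1.84 (SE 0.16, edgeR adjusted p = 2.36e-08), and with barcodes of 300 or more genes kept without a maximum it was -0.36 with an adjusted p of 0.02053. LEC sums held 3, 0 and 1 Adgrg6 UMIs, and the sum of 0 at 6 h allows up to 6.9 CPM at the level of 3 UMIs, or 8.49 CPM by the exact 95% interval. The LEC sums are too small for a fold change to be read from them, although the fit called the difference. Droplets with under 100 UMIs, which hold free RNA and no cell, had 40.7, 28.1 and 46 Adgrg6 CPM, more than gCap or aCap barcodes of the same library. At 3000 UMIs per barcode (barcodes thinned to that depth, shallower ones left out), Adgrg6 was detected in 70.1% of artery, 48.6% of vein, 4.94% of gCap and 1.96% of aCap barcodes of the control. Without thinning these shares were 75.6%, 71.8%, 9.36% and 4.37%, at median depths of 8936, 10366, 7203 and 10661 UMIs. Among 17 leukocyte-like barcodes of the control, which should lack the receptor, 1 (5.88%) held an Adgrg6 UMI at a median depth of 5127 UMIs. The exact interval of that share, 0.149% to 28.7%, is too wide to say whether the gCap or aCap share differs from background.

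Adgrg1 marked aerocytes. In aCap barcodes it stood at 100 CPM in the control, 95.3 at 6 h and 61.1 at 30 h. In gCap barcodes the same libraries had 7.47, 8.4 and 6.87, in vein barcodes 12.1, 10.3 and 6.81, and in artery barcodes 13.3, 23.6 and 10.2. The aCap values did not overlap those of any other blood vessel class. The gCap values lay below the 31.2, 26.1 and 25.8 CPM of empty droplets. The log2 difference of aCap against gCap was 3.50 (SE 0.11, edgeR adjusted p = 3.133e-14), or 13.4-fold, 11.3-fold and 8.89-fold by library. The artery values rest on 10, 16 and 21 UMIs. Their log2 difference against gCap, 0.96 (SE 0.26, edgeR adjusted p = 0.01561), fell short of 2-fold, and without the 6 h melanoma library it was 0.72 with an adjusted p of 0.2159. Without the 30 h library it was 1.17 with an adjusted p of 0.02651 and was called, as it was with the stricter gate (1.55) and with barcodes of 10 or more UMIs of another cell type left out (1.10). Of all Adgrg1 UMIs in endothelial barcodes, 71.7%, 63.2% and 67% came from the aCap gate, which held 13.8%, 12% and 16.8% of the barcodes. At 3000 UMIs per barcode Adgrg1 was detected in 23.8%, 24.1% and 14.9% of aCap barcodes and in 2.22%, 2.36% and 1.76% of gCap barcodes. Unthinned shares were 55%, 53% and 40.8% in aCap and 5.14%, 5.71% and 5.01% in gCap, and no Adgrg1 UMI was found in 17, 40 and 34 leukocyte-like barcodes.

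Adgrl3 and Adgrl4 had opposite placements to Adgrg1 within the capillary bed. Adgrl3 reached 3344 CPM in gCap barcodes of the control, 2232 at 6 h and 1562 at 30 h. In aCap barcodes the values were 957, 586 and 417, in artery 1163, 842 and 552, and in vein 1368, 883 and 372. Within every library gCap was the highest class. Against gCap, the log2 difference was -1.85 in aCap (SE 0.18, edgeR adjusted p = 9.539e-08), -1.48 in artery (SE 0.18, edgeR adjusted p = 7.781e-06) and -1.46 in vein (SE 0.18, edgeR adjusted p = 3.409e-06). The vein deficit differed among libraries, with log2 values of -1.29 in the control, -1.34 at 6 h and -2.07 at 30 h, and whether it differed between conditions could not be tested with 1 library each.

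Adgrl4 was low in aerocytes but not in large vessels. Its gCap level was 1195 CPM in the control, 965 at 6 h and 1018 at 30 h, and its vein level 1247, 972 and 999. In aCap barcodes it was 403, 331 and 383, which did not overlap the other blood vessel classes. The log2 difference in aCap was -1.48 (SE 0.10, edgeR adjusted p = 1.299e-09). In artery and vein the differences were -0.19 (SE 0.10, edgeR adjusted p = 0.2627) and 0.09 (SE 0.10, edgeR adjusted p = 0.5921). Neither passed, although the artery difference was -0.29 with an adjusted p of 0.01093 without the filter on low counts and -0.25 with an adjusted p of 0.02543 with the looser limits on genes per barcode (300 or more).

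For the other 4 receptors the fitted difference from gCap was under 2-fold in each of the blood vessel classes, although Adgrl2 in aCap reached 2.04-fold in the 30 h library. Adgrl2 was higher in aCap (672, 835 and 856 CPM) than in gCap (378, 470 and 419), by a log2 difference of 0.93 (SE 0.08, edgeR adjusted p = 9.999e-09). It was also higher in vein (644, 689 and 697), by 0.76 (SE 0.08, edgeR adjusted p = 3.022e-07). In artery barcodes it was lower (266, 296 and 266), by a log2 difference of -0.62 (SE 0.08, edgeR adjusted p = 2.343e-05), so the latrophilins Adgrl2 and Adgrl3 were ordered differently across the classes. Adgrf5 was lower in artery (1154, 1178 and 1219) and vein (1029, 1025 and 906) than in gCap (1784, 1743 and 1725). Its log2 differences were -0.56 (SE 0.08, edgeR adjusted p = 2.582e-05) in artery and -0.76 (SE 0.08, edgeR adjusted p = 2.891e-07) in vein, while the aCap difference of 0.01 (SE 0.07, edgeR adjusted p = 0.9559) did not pass. Empty droplets had 1389, 1433 and 1175 Adgrf5 CPM, above vein in each library and above artery in the control and at 6 h. Adgra2 was highest in vein among blood vessels (51.2, 51.1 and 47.5 against 29.7, 31 and 30.7 in gCap), with a log2 difference of 0.79 (SE 0.09, edgeR adjusted p = 1.217e-06). Empty droplets had 25.5, 30.2 and 25.8 Adgra2 CPM. Adgre5 was lower in vein (522, 597 and 539 against 826, 884 and 808 in gCap), by -0.53 on the log2 scale (SE 0.08, edgeR adjusted p = 7.947e-05). These vein values lay below the 574, 707 and 551 CPM of empty droplets.

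Lymphatic cells had little of most of these receptors. Adgrf5 stood at 469, 412 and 456 CPM, Adgre5 at 103, 89.7 and 82.7, and Adgrl3 at 186, 80.5 and 156, all below every gCap value of the same gene. These levels also lay below those of empty droplets of the same library. Such droplets had 1389, 1433 and 1175 CPM of Adgrf5, 574, 707 and 551 of Adgre5 and 1230, 945 and 434 of Adgrl3. The part of free RNA in the LEC levels was not tested. The log2 differences were -2.04 (SE 0.08, edgeR adjusted p = 8.682e-13) for Adgrf5, -3.25 (SE 0.12, edgeR adjusted p = 1.49e-13) for Adgre5 and -4.09 (SE 0.23, edgeR adjusted p = 5.534e-11) for Adgrl3. With Scrublet doublets removed they were -3.98 for Adgre5 and -6.07 for Adgrl3, and with barcodes of 300 or more genes kept without a maximum -2.50 and -2.96. Adgrl2 (-2.43, SE 0.11) and Adgrl4 (-2.10, SE 0.12) were also called lower. Adgra2 was an exception at 39.1, 55.2 and 57 CPM, higher than gCap by 0.64 (SE 0.16, edgeR adjusted p = 0.003615), and without the 30 h library this was 0.52 with an adjusted p of 0.07243. LEC sums held 3 to 5 Adgrg1 UMIs, too few to place that gene. At 3000 UMIs, a control LEC barcode held a median of 2 of the 8 receptors, against 5 in gCap, artery and vein and 4 in aCap.

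Counted over the 8 receptors, 4 were called between aCap and gCap (1 higher and 3 lower), where 13.8% of all genes were called, 5.23% higher and 8.53% lower. Between artery and gCap 2 were called, Adgrg6 higher and Adgrl3 lower (7.50% of all genes, 5.32% higher and 2.19% lower). Between vein and gCap the same 2 were called (10.1% of all genes, 6.34% higher and 3.79% lower), and between LEC and gCap 6, all lower (23.2% of all genes in either direction and 10.9% lower). The 6 include Adgrg6, whose LEC sums of 3, 0 and 1 UMIs are too small for a fold change to be read. The median log2 difference of the 8 was -0.264 in aCap, -0.159 in artery, 0.26 in vein and -2.266 in LEC, against -0.004, -0.011, -0.002 and -0.059 over all genes tested. Without the fold limit 6 passed in aCap (47.4% of all genes), 5 in artery (16.3%), 6 in vein (27.5%) and 7 in LEC (38.5%). The shares are a description.

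**Figure D2:**
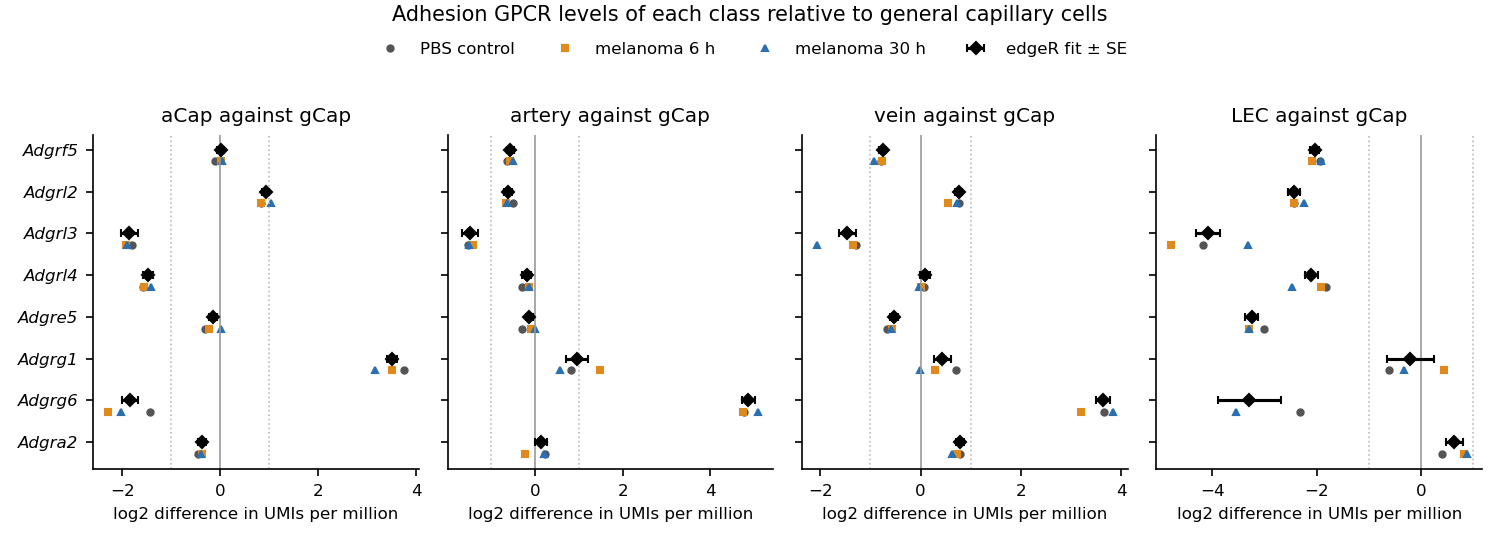
Log2 difference in CPM of aCap-, artery-, vein- and LEC-gated barcodes against gCap-gated barcodes for the 8 receptors. Black diamonds are the edgeR fit over 3 libraries with a standard error worked out from its F statistic. Coloured points below are the single libraries, dotted lines mark 2-fold, and the LEC sum of 0 Adgrg6 UMIs at 6 h has no point. Adgrg6 lies far to the right in artery and vein and Adgrg1 in aCap, and 6 receptors lie to the left of the 2-fold line in LEC. Adgrg6 is among the 6, on LEC sums too small for a fold change to be read.

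To ask how the receptors stood after melanoma cell injection, each melanoma library was compared with the control library. A log2 ratio beyond 0.32 either way was taken as the fold limit, among the 10175 genes that averaged 5 CPM or more in endothelial barcodes. At 6 h, 2 of the 8 receptors were past this limit, Adgrl3 and Adgrg6, both lower, where 13.9% of all genes were past it and 6.74% were lower. At 30 h, 2 were past it, Adgrl3 and Adgrg1, both lower, where 33.4% were past it and 20.4% were lower. The median log2 ratio of the 8 was -0.05 at 6 h and -0.01 at 30 h, against -0.01 and -0.07 over all genes. Both comparisons share the control library. At 30 h the receptors past the limit were no larger a share than that of all genes, so their count is no result about the 8. Between the 30 h and 6 h libraries 2 were past it, Adgrl3 lower and Adgrg6 higher, where 31.5% of all genes were.

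Over all endothelial barcodes Adgrl3 had the largest difference of the 8 at 30 h. At 6 h its ratio lay inside the counting interval of Adgrg6 (-0.59 to -0.46), which reached -0.68 under other processing settings. The Adgrl3 level over all endothelial barcodes was 2663 CPM in the control, 1825 at 6 h and 1164 at 30 h. The log2 ratio to control was -0.55 (95% interval -0.55 to -0.54) at 6 h and -1.19 (-1.21 to -1.18) at 30 h, and the 30 h library was lower than the 6 h library by -0.65. Only 164 of the 10175 genes had a lower ratio at 6 h and 62 at 30 h. Every blood vessel class showed the same order of the libraries. Log2 ratios at 6 h and 30 h were -0.58 and -1.10 in gCap, -0.71 and -1.20 in aCap, -0.47 and -1.08 in artery and -0.63 and -1.88 in vein. In vein barcodes only 12 of 10123 genes had a lower 30 h ratio. In LEC barcodes the ratios were -1.21 (-1.80 to -0.65) at 6 h and -0.25 (-0.67 to 0.17) at 30 h, but their 114, 35 and 85 Adgrl3 UMIs came from 11, 6 and 7 barcodes, and the levels lay below those of empty droplets. The epithelial markers in LEC barcodes summed to 2763, 143 and 101 CPM. No order of the libraries is read from LEC.

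The lower Adgrl3 level was seen at the median and at both ends of the distribution over gCap barcodes. Thinned to 3000 UMIs, the median gCap barcode held 8 Adgrl3 UMIs in the control, 5 at 6 h and 3 at 30 h. The 90th percentile was 20, 15 and 11 UMIs, and barcodes without any Adgrl3 UMI made up 4.39%, 10.3% and 16.3%. In vein barcodes, those without Adgrl3 made up 35.9%, 43.7% and 63.5%, and in aCap barcodes 32%, 41.8% and 52.7%. Empty droplets had 1230, 945 and 434 Adgrl3 CPM, in the same order of the libraries. This was less than in gCap barcodes of each library, but more than in aCap barcodes of each library, in artery at the control and 6 h and in vein at 6 h and 30 h. The part of free RNA in the ratios of these classes was not tested. The haemoglobin and epithelial sums also fell in this order, and the ribosomal gene models rose at 30 h. With 5% free RNA subtracted, or with these models and mitochondrial genes left out of the totals, the Adgrl3 log2 ratio was -0.55 and -0.54 at 6 h and -1.19 and -1.16 at 30 h.

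**Figure D3:**
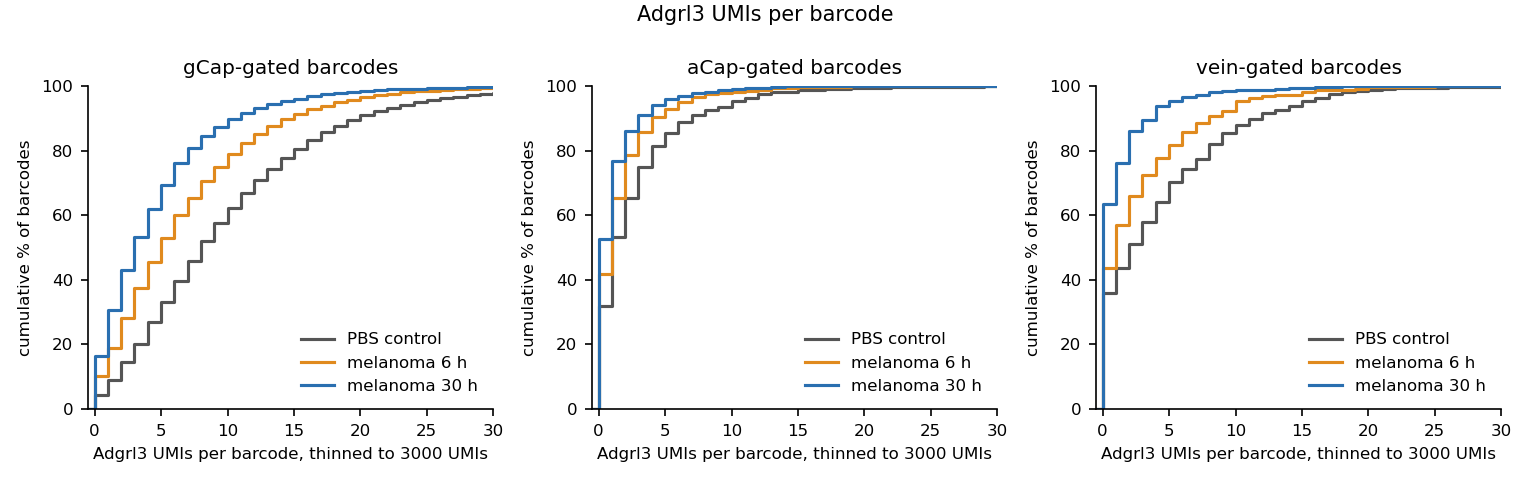
Cumulative share of gCap-, aCap- and vein-gated barcodes (percent) by their number of Adgrl3 UMIs after thinning each barcode to 3000 UMIs, for the control, melanoma 6 h and melanoma 30 h libraries. The control curve lies lowest and the 30 h curve highest until they meet at the upper end, and in gCap the medians are 8, 5 and 3 UMIs.

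Over all endothelial barcodes Adgrl4 was lower at both times by less than the fold limit. It stood at 1021, 840 and 836 CPM, log2 ratios of -0.28 (-0.30 to -0.27) at 6 h and -0.29 (-0.30 to -0.27) at 30 h. Under other processing settings the 30 h ratio ranged from -0.34 to -0.22, at its lowest past the limit. In vein barcodes the ratio was past the limit at 6 h, at -0.36 (-0.41 to -0.31). At 30 h it was -0.32 (-0.37 to -0.27) there, before rounding just short of the limit. The ratios at 6 h and 30 h were -0.31 (-0.33 to -0.29) and -0.23 (-0.25 to -0.21) in gCap. In aCap, at levels below those of empty droplets, they were -0.29 and -0.07. In artery they were -0.15 (-0.31 to 0.00) and -0.08 (-0.20 to 0.05). In LEC barcodes they were -0.42 (-0.76 to -0.08) and -0.89 (-1.25 to -0.54), but these rest on 209, 111 and 100 UMIs at levels below those of empty droplets, and nothing is read from them. Empty droplets had 589, 494 and 419 Adgrl4 CPM, ratios of -0.25 (-0.35 to -0.16) and -0.49 (-0.58 to -0.40), and the part of free RNA was not tested. Unlike Adgrl3, the 30 h and 6 h libraries were alike over all endothelial barcodes, with a log2 difference of -0.01 between them.

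Adgrg6 was lower at 6 h over all endothelial barcodes, while its interval there at 30 h included 0. Its values over all endothelial barcodes were 54.8 CPM in the control, 38.1 at 6 h and 56.7 at 30 h, log2 ratios of -0.52 (-0.59 to -0.46) and 0.05 (-0.01 to 0.11). Within vein barcodes the 6 h ratio was -0.52 (-0.63 to -0.41) and the 30 h ratio -0.01 (-0.11 to 0.09). Empty droplets had a ratio of -0.53 (-0.94 to -0.13) at 6 h and 0.18 (-0.13 to 0.49) at 30 h. Within artery barcodes the ratios were -0.08 (-0.27 to 0.11) and 0.14 (-0.01 to 0.29). Within gCap barcodes they were -0.06 (-0.18 to 0.05) and -0.19 (-0.32 to -0.06), and within aCap barcodes -0.91 (-1.36 to -0.49) and -0.78 (-1.17 to -0.40). The gCap and aCap levels lay below those of empty droplets. Of all Adgrg6 UMIs in endothelial barcodes, vein held 38.1%, 28.2% and 31.9%, artery 10%, 12.8% and 32.5% and gCap 23.5%, 36.4% and 17.6%. The classes also took different shares of the libraries. Vein barcodes were 5.24%, 3.89% and 4.73% of endothelial barcodes in the control, 6 h and 30 h libraries and artery barcodes 0.695%, 0.661% and 2.18%. Their part in the value over all endothelial barcodes was not tested.

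Over all endothelial barcodes and in aCap, Adgrg1 was lower at 30 h. Over all endothelial barcodes it stood at 25.6, 23.8 and 20 CPM, with a log2 ratio of -0.36 (-0.45 to -0.27) at 30 h. With TMM or DESeq2 scaling this fell short of the limit. In aCap barcodes the ratio was -0.07 (-0.18 to 0.03) at 6 h and -0.72 (-0.83 to -0.60) at 30 h. In vein barcodes it was -0.83 (-1.47 to -0.22) at 30 h, on 33 UMIs and at levels below those of empty droplets. The 30 h intervals in gCap, -0.12 (-0.36 to 0.11), and artery, -0.38 (-1.53 to 0.87), included 0. The aCap gate markers in the same barcodes summed to 5020, 4368 and 5982 CPM, highest at 30 h. These markers set the gate, so their sum is no separate measure of the class. The gate held 13.8%, 12% and 16.8% of endothelial barcodes, and the part of gating in the aCap ratio was not tested.

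Adgrl2 was the receptor with the highest ratios, within the fold limit over all endothelial barcodes. It stood at 449, 535 and 522 CPM, log2 ratios of 0.25 (0.23 to 0.27) and 0.22 (0.20 to 0.24). In aCap barcodes the ratios were 0.31 (0.27 to 0.35) and 0.35 (0.31 to 0.38), and the latter was past the limit. Adgre5 was 754, 827 and 756 CPM over all endothelial barcodes, a log2 ratio of 0.13 at 6 h and 0.00 at 30 h. At 30 h its ratio was 0.29 (0.26 to 0.33) in aCap, 0.25 (0.10 to 0.39) in artery and -0.03 (-0.05 to -0.01) in gCap, and the difference between classes was not tested. Empty droplets had Adgre5 ratios of 0.30 (0.21 to 0.39) at 6 h and -0.06 (-0.14 to 0.03) at 30 h. The part of free RNA in the Adgre5 ratios was not tested. Adgrf5 stood at 1680, 1679 and 1642 and Adgra2 at 29.4, 30.8 and 30.4 over all endothelial barcodes. These differed from the control by log2 ratios of at most 0.07 in size. Within classes the Adgrf5 ratio was -0.18 (-0.24 to -0.13) in vein at 30 h and 0.08 (0.06 to 0.11) in aCap at both times. Empty droplets had Adgrf5 ratios of 0.04 (-0.02 to 0.10) at 6 h and -0.24 (-0.30 to -0.19) at 30 h. Vein levels lay below those of empty droplets, and the part of free RNA was not tested.

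By class, 1 of the 8 receptors was past the limit in gCap at 6 h (16.3% of all genes, 7.84% lower) and 1 at 30 h (33.6%, 20.2% lower), Adgrl3 both times and lower. In aCap 2 were past it at 6 h (12.0% of all genes, 6.12% lower), Adgrl3 and Adgrg6, both lower, and 4 at 30 h (39.5%, 15.4% higher and 24.2% lower), Adgrl2 higher and Adgrl3, Adgrg1 and Adgrg6 lower. The aCap values of Adgrg6 rest on 150, 66 and 94 UMIs and lie below the level of empty droplets. In vein 3 were past it at 6 h (24.6%, 13.2% lower), Adgrl3, Adgrl4 and Adgrg6, and 2 at 30 h (37.3%, 22.1% lower), Adgrl3 and Adgrg1, all lower. The heat shock and immediate early genes were highest at 6 h, in gCap at 6661, 10025 and 4905 CPM, and their part in the 6 h values was not tested.

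**Figure D4:**
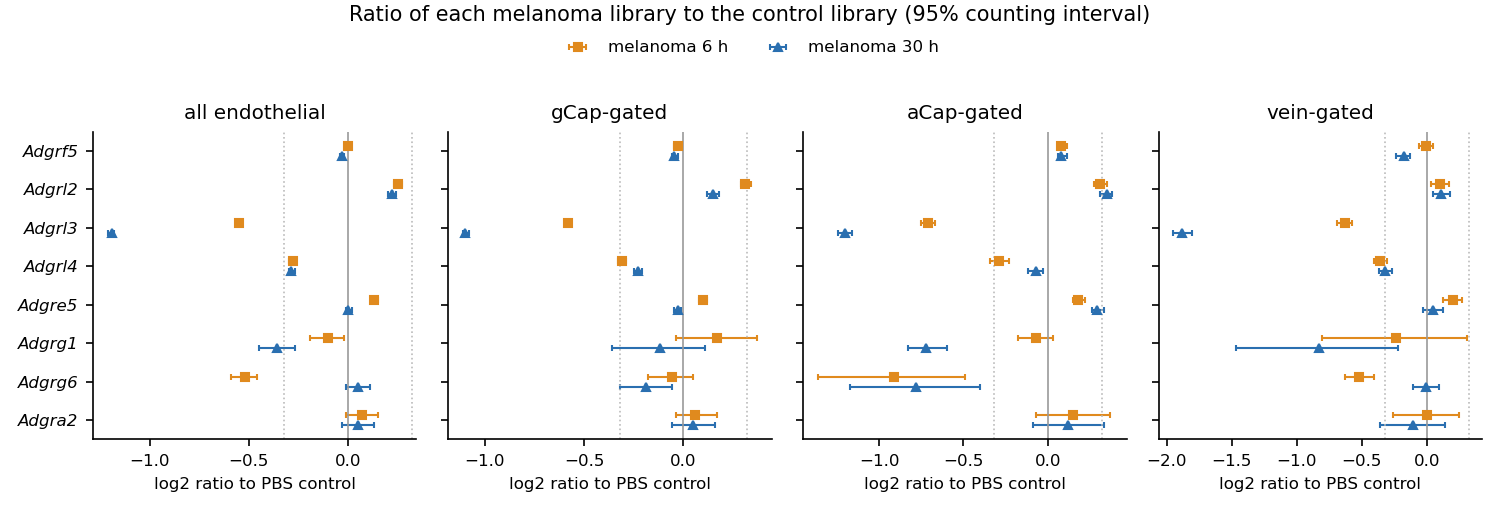
Log2 ratio of CPM in the melanoma 6 h and melanoma 30 h libraries to the PBS control library for the 8 receptors, in all endothelial barcodes and in gCap-, aCap- and vein-gated barcodes. Bars are exact 95% counting intervals, which do not include the spread between mice, and dotted lines mark the fold limit (0.32 either way). Adgrl3 lies to the left in each panel, further at 30 h than at 6 h.

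Of 22 other adhesion GPCR genes, 4 averaged 5 CPM or more in endothelial barcodes. Adgra3 stood at 127, 113 and 89.2, with a log2 ratio of -0.52 (-0.56 to -0.47) at 30 h, past the limit. The latrophilin Adgrl1 (50.1, 58.3 and 46), the cadherin-like receptor Celsr2 (26.6, 24.8 and 22.7) and Adgrg3 (14.2, 14.8 and 13.4) stayed within the limit at both times. Adgra3 was lower than in gCap in every other class, by log2 differences of -1.26 in aCap (SE 0.07, edgeR adjusted p = 6.829e-11), -1.02 in vein (SE 0.08, edgeR adjusted p = 6.601e-09), -0.57 in artery (SE 0.09, edgeR adjusted p = 0.0001997) and -3.04 in LEC (SE 0.17, edgeR adjusted p = 5.555e-11). Adgrg3 was the opposite of most of the 8 in lymphatic cells, at 101, 101 and 118 CPM in LEC against 15.4, 15.8 and 15 in gCap, a log2 difference of 2.73 (SE 0.15, edgeR adjusted p = 4.674e-11). Celsr1 was the other family member called higher in LEC, at 27.7, 82.8 and 27.6 CPM against 0.146, 0.0963 and 0.262 in gCap, a log2 difference of 7.91 (SE 0.51, edgeR adjusted p = 3.752e-10). In gCap, 3 UMIs give 0.0625, 0.0578 and 0.0786 CPM, so the Celsr1 values there are near the floor. The size of the difference is therefore uncertain. Adgra3, Celsr2 and Adgrl1 were called lower in LEC.

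Of 30 ligands and binding partners, 15 averaged 5 CPM or more, and 2 were higher and 3 lower past the limit at 6 h, where 7.12% of all genes were higher and 6.74% lower. At 30 h 4 were higher and 4 lower, where 33.4% of all genes were past it and 20.4% lower. Their median log2 ratios were 0.07 and 0.11. Itga5, an integrin subunit, was 57.5, 80.4 and 51.3 CPM, a log2 ratio of 0.48 at 6 h. Itgav, another integrin subunit, was 55.4, 48.2 and 34.1, a log2 ratio of -0.70 at 30 h. Itgb1, their partner chain, was 632, 711 and 792, a log2 ratio of 0.33 at 30 h. Cd81, a tetraspanin, was 87.3, 78.1 and 116, a log2 ratio of 0.41 at 30 h. Tgm2, the transglutaminase that binds Adgrg1, was 166, 207 and 119, a log2 ratio of -0.48 at 30 h. Wnt7a, Wnt7b, Tenm1, Tenm2 and Tenm4 were each under 0.5 CPM in all 3 libraries.

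Gnao1, a G protein alpha subunit of the Gi/o class, was 70.3, 52.7 and 67.8 CPM, a log2 ratio of -0.42 at 6 h. Between classes, Gnao1 was 222, 192 and 213 CPM in aCap against 35.3, 25.1 and 26.6 in gCap, a log2 difference of 2.89 (SE 0.10, edgeR adjusted p = 1.885e-12). Of the 22 ligands and binding partners tested between classes, 2 were called higher and 5 lower in aCap (5.23% and 8.53% of all genes), 8 higher and 2 lower in artery (5.32% and 2.19%), 4 higher and 3 lower in vein (6.34% and 3.79%), and 10 higher and 1 lower in LEC (12.3% and 10.9%).

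Across the 15 sums of library and class, likeness to each receptor was measured by Pearson's r on the log2 scale over 7171 genes that averaged 20 CPM or more. The sums of 1 library share their depth and treatment, so r is a description. The LEC sums are among the 15, and 6 of the 8 receptors were called lower there than in gCap. No r was computed over the blood vessel classes alone. The genes most like Adgrg6 were Plac8, Ptprr and Spon1 (r of 0.97 to 0.98), and those most like Adgrg1 were Bpgm, Cds2 and Egflam (0.93 to 0.94). Adgrl3 was closest to Tor3a, Rb1 and Csnk1e (0.94 to 0.96) and Adgrl4 to Syne2, Specc1 and Abcb1a (0.97 to 0.98). Adgrf5 was closest to Arap2, Tmcc3 and Pde5a (0.97 to 0.98), and Adgre5 to Gdpd1, Bmpr2 and Acvrl1 (0.98). Adgrl2 was closest to Gjc1, Gcnt2 and Baiap2 (0.97), and Adgra2 to Mgat4a, Tmem131 and Colec12 (0.91 to 0.92). Among the 8 themselves, Adgrf5 and Adgre5 were the most alike pair (r of 0.94) and Adgrf5 and Adgra2 the least (-0.78).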

How the data were processed

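Single-cell RNA-Seq libraries of sorted lung endothelial cells from 3 groups (control, melanoma at 6 h and at 30 h, 1 library each) were used. The deposited files hold UMI counts per gene and barcode for all barcodes, not normalised, which the authors made with Cell Ranger (7.2.0 per the file headers, while the study's methods name another version) on mm10. The submitters' processing notes also name Seurat 4.4.0. Whether intronic reads were counted is not given in the sources used here. Libraries held 140601123, 132566934 and 124085451 UMIs, and endothelial barcodes 90853430, 87340328 and 81485079.

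Class gates required at least 8 marker UMIs of 4 markers for aCap, 3 of 2 for artery, 8 of 3 for vein, 5 of 2 for LEC and 5 of 2 for gCap. A gCap barcode also had fewer than 5 aCap, 3 artery, 4 vein and 2 LEC marker UMIs. The limits were set from marker UMIs alone, after these were seen. Leukocyte-like barcodes had under 2 UMIs of Pecam1 and Cdh5 and at least 5 leukocyte UMIs of 3 markers. Doublets were not removed in the values reported, and Scrublet (scanpy 1.11.5, 0.8% per 1000 barcodes) marked 1962, 1824 and 1369 barcodes in an alternative. Levels are CPM over all UMIs of the same barcodes, with exact Poisson intervals, exact conditional binomial intervals for ratios and exact (Clopper-Pearson) intervals for shares, all at 95%. Likeness used log2 of CPM plus 1.

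Class contrasts used edgeR 4.0.16 (R 4.3.3) on UMI sums with TMM scaling, without the gate genes, and DESeq2 1.42.0 as an alternative. The SE given is the size of the log2 difference divided by the square root of its F statistic. The tests were checked on simulated data. The 3 libraries are replicates for class differences only, each a pool of mice under another treatment. All classes were fitted together with a library term. The p-values therefore measure the spread among libraries that is left after that term, estimated over all classes at once.

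The members and gene lists were chosen with earlier results of these data known. Named genes were the 8 receptors, other family members with a mean of at least 5 CPM, listed partners with a mean of at least 20 and a log2 ratio beyond 0.32, and the 3 genes most like each receptor. Celsr1, Thy1, Cd55, Flrt2, Tenm1, Tenm2, Tenm3, Tenm4, Wnt7a and Wnt7b were named after their values were seen. Part of the list of signalling genes is not reported here.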

Additional observations from a re-analysis of the deposited data

Results flagged for a closer look

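Adgrl2 was higher at 6 h also in droplets without cells. Empty droplets held 251 CPM in the control, 341 at 6 h and 278 at 30 h, a log2 ratio at 6 h of 0.44 (0.31 to 0.57). It drew attention because these droplets lie outside the endothelial barcodes and stood above the control past the fold limit. Endothelial barcodes of the same libraries had a log2 ratio of 0.25.

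Adgre5 in gCap barcodes was above the control at 6 h, by a log2 ratio of 0.10 (0.08 to 0.12), and below it at 30 h, by -0.03 (-0.05 to -0.01). It drew attention because the counting intervals at the 2 times lie on opposite sides of 0. Both differences are within the fold limit, and the difference between the times was not tested, since each time has 1 library.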

How the results depend on the processing

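The 4 counts of receptors past the fold limit and the 4 counts called between classes were recomputed under 90 combinations of count and setting, of which 82 stayed within 1.5 times the reported count and 8 did not. Of the ratios to control in all endothelial barcodes and in gCap, 64 moved by more than counting error and 240 did not. With a stricter limit of 1.5-fold, 0 receptors were past it at 6 h in all endothelial barcodes, 0 at 6 h in gCap and 1 at 30 h in all endothelial barcodes (Adgrl3). With TMM scaling 1 receptor, and with DESeq2 size factors 1 receptor, was past the limit at 30 h in all endothelial barcodes, in both cases Adgrl3 without Adgrg1. Leaving out barcodes with 2 UMIs of another cell type gave 2 at 6 h in gCap, Adgrl3 and Adgrl4. Without a fold limit 5 receptors were called in artery and 6 in vein. No library could be left out of the condition counts, which have 1 per group. Class counts ranged from 4 to 4 (aCap), 2 to 3 (artery), 2 to 2 (vein) and 6 to 6 (LEC) when each library was left out in turn, and Adgrg1 was the receptor gained in artery without the 30 h library. Without the library as a block, 4 receptors were called in aCap, 2 in artery, 2 in vein and 6 in LEC, as with it. Leaving out barcodes with 10 UMIs of another cell type, an alternative chosen after seeing the data, gave 3 in artery, and the stricter gate also 3, again with Adgrg1. When barcodes with 300 or more genes were kept without a maximum, 3 were called in aCap, without Adgrg6. No alternative reversed a class difference that passed the test or a condition ratio past the limit in all endothelial barcodes or gCap, and ratios in the other classes were not recomputed. Over the alternatives, the Adgrl3 log2 ratio ranged from -0.61 to -0.53 at 6 h and from -1.27 to -1.12 at 30 h in all endothelial barcodes. The Adgrl3 log2 difference from gCap ranged from -2.28 to -1.33 in aCap and from -6.07 to -2.96 in LEC, with every adjusted p under 0.05, and that of Adgrg6 in aCap from -2.41 to -0.36. LEC and artery sums, with 54 to 202 barcodes, limit what can be said of Adgrg1, Adgrg6 and Adgra2 there.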

Other observations

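Adgre5 was detected, alone among the 8 receptors, in most leukocyte-like barcodes, which were kept out of the endothelial sums. A UMI of it was present in 11 of 17 such barcodes in the control, 32 of 40 at 6 h and 27 of 34 at 30 h (64.7%, 80% and 79.4%). Its level there was 398, 397 and 550 CPM, against 754, 827 and 756 in endothelial barcodes. That of Adgrf5 was 42.3, 34.5 and 16.5, against 1680, 1679 and 1642. The leukocyte markers summed to 17.4, 28.9 and 28.1 CPM in endothelial barcodes. The part of leukocyte RNA in the Adgre5 level there was not tested.

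Tenm3, a teneurin of the family that latrophilins bind, was among the listed partners with the largest differences in lymphatic cells and was singled out after its values were seen. Its level was 225, 271 and 217 CPM in LEC barcodes of the control, 6 h and 30 h libraries and 0.333, 0.347 and 0.341 in gCap barcodes. The log2 difference was 9.35 (SE 0.30, edgeR quasi-likelihood adjusted p = 2.437e-13, Benjamini-Hochberg). Thy1 (288, 258 and 276 CPM in LEC), Cd55 (117, 131 and 131) and Flrt2 (248, 212 and 191) were called higher in LEC too, by 10.27, 7.08 and 5.15 on the log2 scale. Thy1 in gCap stood at 0.104, 0.25 and 0.262 CPM, near the level of 3 UMIs, so the size of its difference is uncertain. The latrophilins Adgrl2 and Adgrl3 were at their lowest in LEC barcodes, at 70.1 to 88.2 and 80.5 to 186 CPM.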
